A study of Mus musculus with 4 samples.

Results

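Ventricular endocardial cells form the inner lining of the ventricles, and 1380 barcodes of 61172 in 4 single-cell libraries were taken as such cells. The cells were chosen by their own measured UMIs. A barcode needed at least 1000 genes, under 10% mitochondrial UMIs and under 1% of its UMIs from 8 cardiomyocyte genes (Tnnt2, Tnni1, Tnnc1, Actc1, Myl3, Myl4, Myl7 and Myh7), which left 15568 barcodes. Of these, 3927 held at least 5 UMIs of Cdh5, Pecam1, Emcn, Cd93, Plvap and Kdr with at least 3 of the 6 detected. An endocardial cell then had at least 2 UMIs of Npr3 and more of Npr3 than of Fabp4, at most 1 UMI of Wnt4 and Wnt9b, and at most 2 UMIs of the G2/M genes Ube2c, Ccnb1 and Cdc20. The gate found 316, 364, 473 and 227 cells in libraries called het 1, het 2, KO 1, KO 2, and values given in fours keep that order.

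The endocardium is the specialised endothelium that faces the blood inside the heart. It sends signals such as neuregulin, Notch ligands and BMPs across the cardiac jelly to the trabecular myocardium, part of it turns into the mesenchyme of the valve cushions, and it contributes vessels to the ventricular wall. Gata4 is a zinc-finger transcription factor of endocardium and myocardium. Npr3, the clearance receptor for natriuretic peptides, is a widely used endocardial marker, while Fabp4, a fatty acid binding protein, marks capillary endothelium.

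All embryos carried 1 copy of the Rosa26mTmG reporter and the Cdh5(Pac)-CreER transgene, and all were exposed to tamoxifen at E9.5 (embryonic days), with ventricles collected at E12.5. The 2 het libraries came from Gata4fl/+ embryos and the 2 KO libraries from Gata4fl/fl embryos, so the controls also carried a floxed allele, the Cre and the drug. Cdh5, the VE-cadherin gene, is active in all endothelium, so the Cre was not limited to the endocardium. Where Cre has acted, the reporter makes EGFP in place of its red protein. Whether 1 embryo or a pool gave each library is not stated in the labels. Het 1, het 2 and KO 1 held cells of both sexes by Xist and Y-linked UMIs, as given below. Each of these libraries thus held cells of more than 1 embryo, while for KO 2 the number of embryos is open. The p-values measure the spread between these libraries, which may be technical in part.

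Over all barcodes the libraries held 137890971 to 190207638 UMIs, and het 1 stood apart, with a lowest barcode of 1841 UMIs against 500 to 521 in the others. The endocardial cells alone held 3985853, 6983357, 7097252 and 5524204 UMIs. Their medians were 8694, 16553, 13018 and 22240.0 UMIs per cell. The libraries shared 23 to 103 barcodes pair by pair over all barcodes, and no endocardial barcode stood in more than 1 library (0 of 1380). Scrublet marked 2, 4, 5 and 4 endocardial cells as doublets, and they were kept. Of the endocardial cells, 145, 76, 247 and 218 had Xist and no Y-linked UMI, and 114, 257, 166 and 0 had Y-linked UMIs and no Xist. A further 33, 17, 38 and 0 had UMIs of both, more than Scrublet marked in het 1, het 2 and KO 1, and 24, 14, 22 and 9 had neither. The Y-linked gene Ddx3y had 0 UMIs in KO 2, which allows up to 0.543 CPM, so the libraries differed in their make-up by sex.

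The label was checked against the 5 marker genes given for these cells. All 5 were present in every library, and all 5 are genes of the gate, so their levels are a description. Levels by cell class are plain CPM, UMIs scaled to a common total (counts per 1000000 UMIs) of that class in a library. Npr3 stood at 947, 622, 1152 and 789 CPM, against 61.7, 28.4, 56.1 and 20.0 CPM in 269 coronary-like endothelial cells (at least 2 UMIs of Fabp4 and more of Fabp4 than of Npr3) of the same libraries. Plvap, a protein of endothelial diaphragms, stood at 709, 665, 665 and 743 CPM, and Emcn, a sialomucin of endothelium, at 560.2, 692, 695 and 971 CPM. Cdh5 was at 783, 753, 854 and 808 CPM and Cd93, a receptor of endothelial adhesion, at 805, 762, 771 and 725 CPM. In coronary-like cells the last pair stood at 759, 862, 1031 and 794 CPM for Cdh5 and 592, 729.7, 771 and 723 CPM for Cd93, values that overlap those of endocardial cells. The lower Npr3 of coronary-like cells follows from how both classes were chosen and is no support for the label.

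Of the endocardial genes that the gate did not use, 5 are given here, and each had the same order between the classes. Adgrg6, an adhesion receptor, stood at 495, 394, 587 and 526 CPM in endocardial cells and 48.4, 32.2, 33.8 and 11.4 CPM in coronary-like cells. Tmem100, a membrane protein downstream of BMP receptors in endothelium, stood at 95.3, 110.0, 101 and 137 and 10.3, 11.4, 10.7 and 24.7 CPM. The forkhead gene Foxc1 stood at 195, 185, 207 and 157 and 26.7, 19.9, 24.8 and 28.5 CPM, and the endocardial GATA factor Gata5 at 55.7, 43.0, 59.3 and 55.2 and 3.09, 4.74, 5.78 and 15.2 CPM. Nfatc1, a transcription factor of endocardium and valves, was at 132, 119, 181 and 145 CPM, above the coronary-like cells (29.8, 33.2, 49.5 and 52.3 CPM) and below 628 cells with at least 2 UMIs of Wnt4 and Wnt9b, whose mean was 356 CPM. These 5 genes were picked for display after their values were seen. The full list of 20 endocardial identity genes, which includes Npr3 of the gate, summed to 5102, 4355, 6017 and 5162 CPM in endocardial cells. In coronary-like cells the mean of that sum was 956 CPM. Of the coronary genes, Apln, the apelin ligand, stood at 1.51, 1.15, 1.27 and 1.09 CPM against 90.5, 133, 93.3 and 74.2 CPM in coronary-like cells. Apln is 1 of 22 coronary markers, a list that includes Fabp4 of the gate. Together the 22 summed to 3338, 3777, 2950 and 3199 CPM in endocardial cells, against a mean of 6840 CPM in coronary-like cells. Coronary markers as a set were thus lower but not absent.

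**Figure D1:**
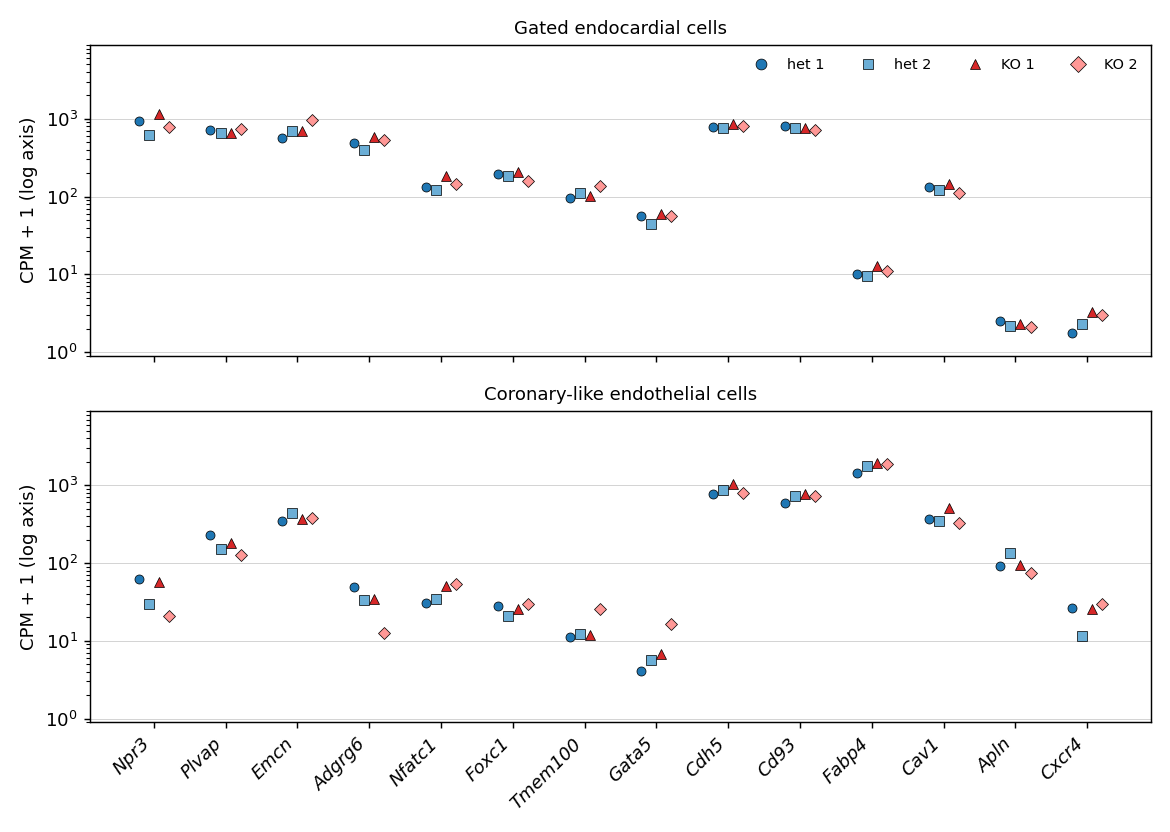
CPM + 1 (log axis) of 14 marker genes in the gated endocardial cells (top) and the coronary-like endothelial cells (bottom), 1 point for each of the 4 libraries. Npr3, Adgrg6, Foxc1, Tmem100 and Gata5 sit higher in the top panel, Fabp4, Apln and Cxcr4 higher in the bottom panel, and Cdh5 and Cd93 lie at similar heights in both.

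At the limit of the gate, 136 cells had exactly 2 UMIs of Npr3 and 196 cells met every other condition with 1 UMI of Npr3 and none of Fabp4. Of the cells just outside, 106, 42, 31 and 17 came from the respective libraries. The cells just inside averaged 376 CPM of Plvap and 192 CPM of Adgrg6, and the cells just outside 245 and 174 CPM. Both genes were lower just outside the limit, and het 1, the shallowest library, had the most cells there.

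Reporter transcripts were measured as added sequences. EGFP stood at 1678, 2896, 1743 and 2455 CPM in endocardial cells, and at least 1 EGFP UMI was seen in 91.5, 95.6, 92.8 and 89.9% of them. With every cell thinned to 3000 UMIs, which left out 43, 3, 18 and 4 endocardial cells, the shares were 86.4, 91.1, 80.9 and 80.3%, against 11.3, 11.2, 12.2 and 8.27% in cardiomyocytes, which should lack it. The red reporter (dsRed) was seen in 18.7, 15.2, 21.8 and 24.7% of thinned endocardial cells, 25.6, 25.5, 22.1 and 20.0% of thinned coronary-like cells and 39.6, 49.6, 36.2 and 42.0% of thinned cardiomyocytes. The share with dsRed in endocardial cells was thus below that of the cardiomyocytes in every library. An added sequence named FloxGata4 had 0 UMIs in the endocardial cells of all 4 libraries, which allows up to 0.753 CPM in the shallowest. It stood at 0.132 CPM in cardiomyocytes of het 1. One named FloxGata4_ctrl had 14, 13, 24 and 20 UMIs in endocardial cells. The labels do not say what these sequences hold.

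Transcripts of other cell types were present at levels that differed between libraries. The 12 erythroid markers summed to 25087, 8727, 21690.1 and 3095 CPM, highest in het 1 and KO 1. The 13 macrophage markers summed to 48.9, 31.1, 195 and 14.8 CPM and the 8 megakaryocyte markers to 32.6, 24.8, 240.1 and 22.6 CPM, so KO 1 was highest for both. The 13 epicardial markers summed to 74.0, 27.2, 172 and 19.7 CPM and the 18 mesenchymal markers to 1446, 1331, 1968 and 1529 CPM. Cardiomyocyte markers outside the gate summed to 1659, 987, 1390.0 and 838 CPM, against a mean of 47721 CPM in cardiomyocytes. Of 7 neural crest markers, 3 had no UMI in any library. The part of these transcripts in the results below was not tested, except where a value without the cells concerned is given.

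The endocardial cells took 8.05% and 8.25% of the het barcodes that passed the quality limits (95% Wilson intervals 7.24 to 8.95 and 7.47 to 9.10). In the KO libraries they took 10.2% and 8.82% (9.32 to 11.1 and 7.78 to 9.97). The intervals cover counting error only. The difference of the means was 1.33 percentage points (two-sided exact permutation p = 0.333, the smallest that 2 libraries against 2 allow). Of the barcodes that passed the endothelial limits, the shares were 28.8%, 31.8%, 43.0% and 38.7%, a difference of 10.5 points with the same p. With 1 UMI of Npr3 in place of 2, the first difference was 0.171 points, and with at least 2000 genes per cell 0.340 points, each with an exact permutation p = 0.667. The median Npr3 UMIs per cell were 6, 9, 14 and 16, higher in both KO libraries, and the part of this gene and of depth in the share was not tested.

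The 1380 cells were grouped again into 7 subclusters, which are described by their leading genes with no test, since the same cells defined them. Subcluster 1, with 422 cells, was led by Nav3, Stc1, Abcc9, Dll4 and Adora2a, of which Dll4 is a Notch ligand and Stc1 a secreted glycoprotein. It held 30.7%, 31.3%, 29.4% and 31.7% of the endocardial cells. Subcluster 2, with 269 cells, had Enpp6, Sned1, Nrg1 and Cyp26b1 among its leading genes, of which Nrg1 encodes neuregulin and Cyp26b1 an enzyme that breaks down retinoic acid. Nrg1 stood there at 347, 493, 268 and 232 CPM and in subcluster 1 at 76.2, 60.2, 70.7 and 83.2 CPM, while Dll4 stood at 7.10, 14.0, 18.0 and 9.88 CPM in subcluster 2 and 49.9, 33.9, 41.7 and 42.8 CPM in subcluster 1. In every library Nrg1 was highest in subcluster 2 and Dll4 in subcluster 1, and within subcluster 2 both KO libraries were below both het libraries for Nrg1.

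Subclusters 3 and 4 were led by cycle genes although the gate had removed cells with over 2 UMIs of the 3 G2/M genes. Subcluster 3, with 176 cells, was led by Ccnb2, Cenpa, Pttg1, Birc5 and Knstrn, which act in mitosis. Subcluster 4, with 148 cells, was led by Clspn, Esco2, H1f5, Rad51ap1 and Cdc6, of which Clspn and Cdc6 act in DNA replication. Subcluster 5, with 127 cells, was led by Ptger4, Fst, Tbx5, Socs2 and Ntn4. Tbx5, a T-box factor of the heart, stood there at 72.1, 30.0, 42.4 and 27.9 CPM and at 0, 1.41, 2.54 and 0 CPM in subcluster 1. Subcluster 6, with 120 cells, was led by Ano3, Psrc1, Eda2r, Cdkn1a and Dcxr, of which Psrc1, Eda2r and the cycle inhibitor gene Cdkn1a are known targets of p53. Cdkn1a stood there at 416, 367, 370.0 and 466 CPM, against 33.3, 53.6, 14.2 and 30.5 CPM in subcluster 1, while Trp53 itself stood at 201, 185, 172 and 177 and 143, 188, 169.9 and 168 CPM.

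Subcluster 7, with 118 cells, was led by Tent5c, Pdzk1ip1, Col1a1, Car2 and Slc4a1, genes of blood cells and of mesenchyme, and held 14 of the 15 doublets. It is therefore given no cell type, and the counts of genes are also given without it. Its share was 13.6%, 4.95%, 9.30% and 5.73%, and that of subcluster 6 was 3.80%, 11.8%, 8.03% and 11.9%. Subcluster 5 held 13.3%, 9.34%, 8.03% and 5.73%, lower in both KO libraries than in both het libraries, although its lowest het value and highest KO value lay close together. Shares of these subclusters were not tested between the groups, since genes that differ between the groups also took part in the grouping.

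**Figure D2:**
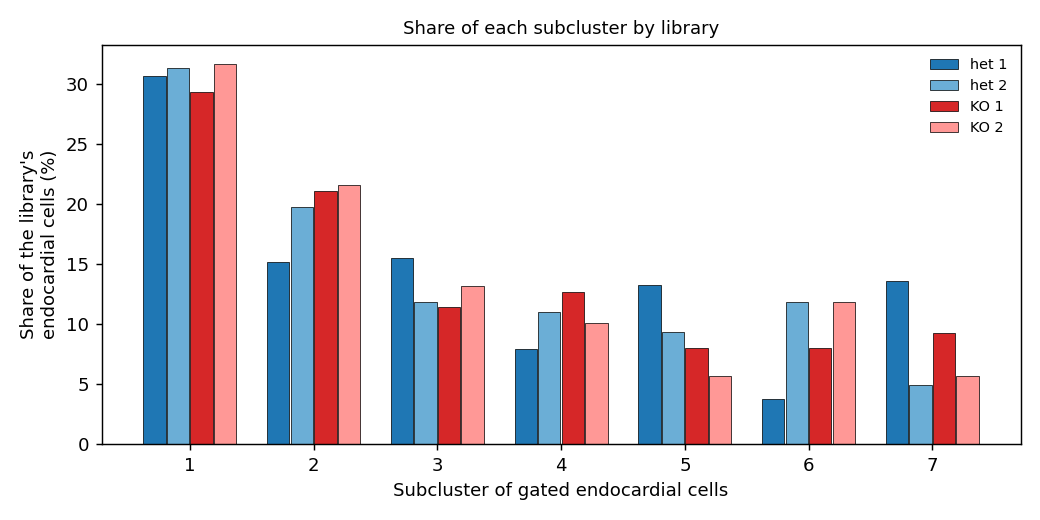
Share of each library's gated endocardial cells (%) in the 7 subclusters, 1 bar for each library, with no error bars. Subcluster 1 holds 29.4% to 31.7% in all 4 libraries, and het 1 differs most from the other libraries in subclusters 6 and 7.

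The main comparison asked which genes differ between endocardial cells of embryos with 2 and with 1 floxed Gata4 alleles. UMIs were summed over the endocardial cells of each library. Levels from here on are CPM scaled by TMM, except for plain CPM where a subcluster, a sex or a sum over a list is named. Of 13290 genes tested with edgeR, none passed an adjusted p of 0.05 (0 of 13290, 0%), and 547 had an unadjusted p under 0.05, with 318 of them above and 229 below the het level. DESeq2 called 22 genes, 19 upward and 3 downward, or 0.227% of the 9682 genes to which it gave an adjusted p, and limma-voom called 0. Fits without 1 library at a time leave a single library in 1 group, whose spread is then not measured. Their counts of genes are therefore not given, and the 19 alternative settings named below include these 4 fits. With all 4 libraries, edgeR called 185 genes (145 higher, 40 lower) with no filter on low counts and 10 after thinning. It called 6 without subcluster 7 and 8 in subclusters 1 and 2 alone, subsets that were added after the data were seen. It called 2 without cells with at least 3 UMIs of Mki67 and Top2a. It called 0 with DESeq2-type size factors, at least 2000 genes per cell, 1 UMI of Npr3 or cardiomyocyte UMIs under 0.5%. The count was also 0 without doublets, in cells with EGFP and in female-type cells. No gene below is thus called changed by the main test, and levels, differences and adjusted p-values from edgeR are given.

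Gata4 (chr14:63198922-63271692, minus strand, GRCm38) was higher in the libraries labelled KO. Its level was 133 and 114 CPM in the het pair and 222 and 228 CPM in the KO pair (log2 difference 0.87, SE 0.157, adjusted p = 0.486). It passed in DESeq2 and with no filter on low counts, and did not pass with limma-voom, after thinning or without subcluster 7. The groups did not overlap. The labels conflict on the kit (3′ v2 or Chromium Next GEM) and do not name the floxed exons, so this level is no check of the deletion. The neighbouring gene Neil2, on the same strand, encodes a glycosylase of DNA repair (chr14:63182443-63193856, minus strand). It stood at 20.7 and 17.4 CPM in the het pair and 82.3 and 63.5 CPM in the KO pair (log2 difference 1.95, SE 0.204, adjusted p = 0.0874). Both neighbours were thus higher in both KO libraries, Neil2 by the larger factor. At least 1 Neil2 UMI was seen in 15.8, 25.5, 56.7 and 60.8% of endocardial cells, and after thinning in 3.30, 5.54, 23.5 and 17.9%, against 0.253, 0.644, 0.303 and 0.200% of thinned cardiomyocytes.

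Genes named next had at least 20 CPM in a group and libraries of the groups apart, and were taken in order of p, 12 for each direction. Over all genes tested, 14.7% had both KO libraries above both het libraries and 15% had both below, so that condition alone says little about a gene, and the separation of the named genes follows from their choice. Among the genes with higher KO levels, Vwf had the lowest p. Vwf (chr6:125546774-125686679, plus strand) encodes von Willebrand factor, the adhesive protein that endothelium stores for platelets. It stood at 74.9 and 89.5 CPM in the het pair and 287 and 312 CPM in the KO pair (log2 difference 1.86, SE 0.170, adjusted p = 0.0874). The KO libraries lay close together and above the het pair. A Vwf UMI was seen in 40.2, 55.2, 72.7 and 77.5% of the cells, in 17.6, 24.9, 45.3 and 43.0% after thinning, and in 0.379, 0.117, 0.607 and 0.267% of thinned cardiomyocytes, so more KO cells had a UMI at equal depth. Vwf passed in DESeq2, with no filter on low counts, after thinning and without subcluster 7. It did not pass with limma-voom, without doublets, in cells with EGFP or in female-type cells.

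Next described are the ligand gene Bmp6, the receptor genes Acvrl1 and Unc5b and the connexin gene Gja5. Bmp6 (chr13:38345107-38500302, plus strand), a BMP ligand, stood at 14.9 and 20.8 CPM in the het pair and 53.8 and 65.7 CPM in the KO pair (log2 difference 1.72, SE 0.218, adjusted p = 0.163). Acvrl1 (chr15:101128522-101145336, plus strand), the endothelial type I receptor ALK1 for BMPs, stood at 11.7 and 10.7 CPM in the het pair and 33.0 and 40.8 CPM in the KO pair (log2 difference 1.72, SE 0.199, adjusted p = 0.126). Gja5 (chr3:96904693-97077416, plus strand), which encodes the gap junction protein connexin 40 of arterial endothelium and trabeculae, stood at 4.88 and 3.26 CPM in the het pair and 23.7 and 29.7 CPM in the KO pair from 20, 22, 174 and 157 UMIs (log2 difference 2.74, SE 0.275, adjusted p = 0.0874). The het levels of Gja5 were the lowest of the named genes, and after thinning a UMI was seen in 1.83, 0, 5.05 and 7.62% of endocardial cells, against 3.48, 2.52, 2.28 and 0.934% of thinned cardiomyocytes. Cardiomyocytes can express this gene, so their share is no background level, and the endocardial share was higher in both KO libraries than in both het libraries. Unc5b, a netrin receptor gene, stood at 14.9, 11.9, 34.9 and 28.3 CPM (log2 difference 1.26, SE 0.210, adjusted p = 0.486).

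The other higher genes were Fbln2, Fbn2, Emb, Thsd7a, Amigo2 and Eml1. Fbln2 (chr6:91212455-91272540, plus strand), the gene of the matrix protein fibulin 2 of the endocardial cushions, stood at 98.8 and 110.1 CPM in the het pair and 247 and 227 CPM in the KO pair (log2 difference 1.18, SE 0.156, adjusted p = 0.181). Fbn2, a fibrillin gene of elastic microfibrils, stood at 124, 127, 237 and 267 CPM in the same order (log2 difference 1.003, SE 0.156, adjusted p = 0.354). Emb, an adhesion protein of the basigin family, stood at 14.6, 19.1, 40.4 and 41.9 CPM and Thsd7a, a membrane protein with thrombospondin repeats, at 14.1, 14.5, 34.3 and 35.9 CPM. Amigo2, an adhesion gene with leucine-rich repeats, stood at 12.4, 12.8, 25.02 and 29.1 CPM and Eml1, a microtubule-binding protein gene, at 11.7, 12.2, 33.0 and 24.7 CPM. For these 4 genes the log2 differences were 1.27, 1.29, 1.10 and 1.28, with adjusted p-values from 0.181 to 0.486.

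Among the genes with lower KO levels, Ptpre (chr7:135537481-135686293, plus strand), a protein tyrosine phosphatase gene, had the lowest p. It stood at 56.1 and 62.6 CPM in the het pair and 17.4 and 12.46 CPM in the KO pair (log2 difference −1.98, SE 0.209, adjusted p = 0.0874). Ptpre passed in the same 4 settings named for Vwf and did not pass in the others named there. After thinning, a Ptpre UMI was seen in 15.8, 16.3, 3.96 and 4.04% of the cells, and in 0.1896, 0.351, 0.0506 and 0.0667% of thinned cardiomyocytes. Irx3 (chr8:91798525-91802067, minus strand), an Iroquois homeobox gene of the ventricular conduction system, stood at 28.5 and 27.7 CPM in the het pair and 10.5 and 9.44 CPM in the KO pair (log2 difference −1.49, SE 0.188, adjusted p = 0.163). Fxyd6, a regulator gene of the sodium pump, stood at 28.8, 27.6, 9.25 and 11.9 CPM (log2 difference −1.42, SE 0.205, adjusted p = 0.263). Each of the 3 had het libraries within a narrow range and KO libraries below that range by a factor of more than 2.

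The other 9 genes with lower KO levels had log2 differences from −1.14 to −0.68 and adjusted p-values from 0.486 to 0.685. Matrix genes among them were Col13a1, a membrane-bound collagen gene, at 146, 128, 88.3 and 72.9 CPM, and Col14a1, a collagen gene of fibril surfaces, at 85.8, 76.1, 49.9 and 42.1 CPM. Adhesion genes were Jup, the junction protein plakoglobin, at 72.4, 74.8, 47.5 and 44.2 CPM and Tes, a focal adhesion protein, at 27.6, 28.0, 14.6 and 14.4 CPM. Signalling genes were Rasgrp2, an exchange factor for Rap, at 34.1, 31.5, 18.6 and 10.6 CPM, Arhgef3, a gene of the guanine nucleotide exchange factors, at 22.4, 18.8, 11.7 and 9.63 CPM and the kinase gene Map4k2 at 25.6, 22.1, 13.9 and 13.2 CPM. Sord, sorbitol dehydrogenase, stood at 49.3, 47.9, 27.7 and 31.0 CPM and Trp53i11, a gene induced by p53, at 81.9, 81.2, 45.7 and 47.6 CPM.

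**Figure D3:**
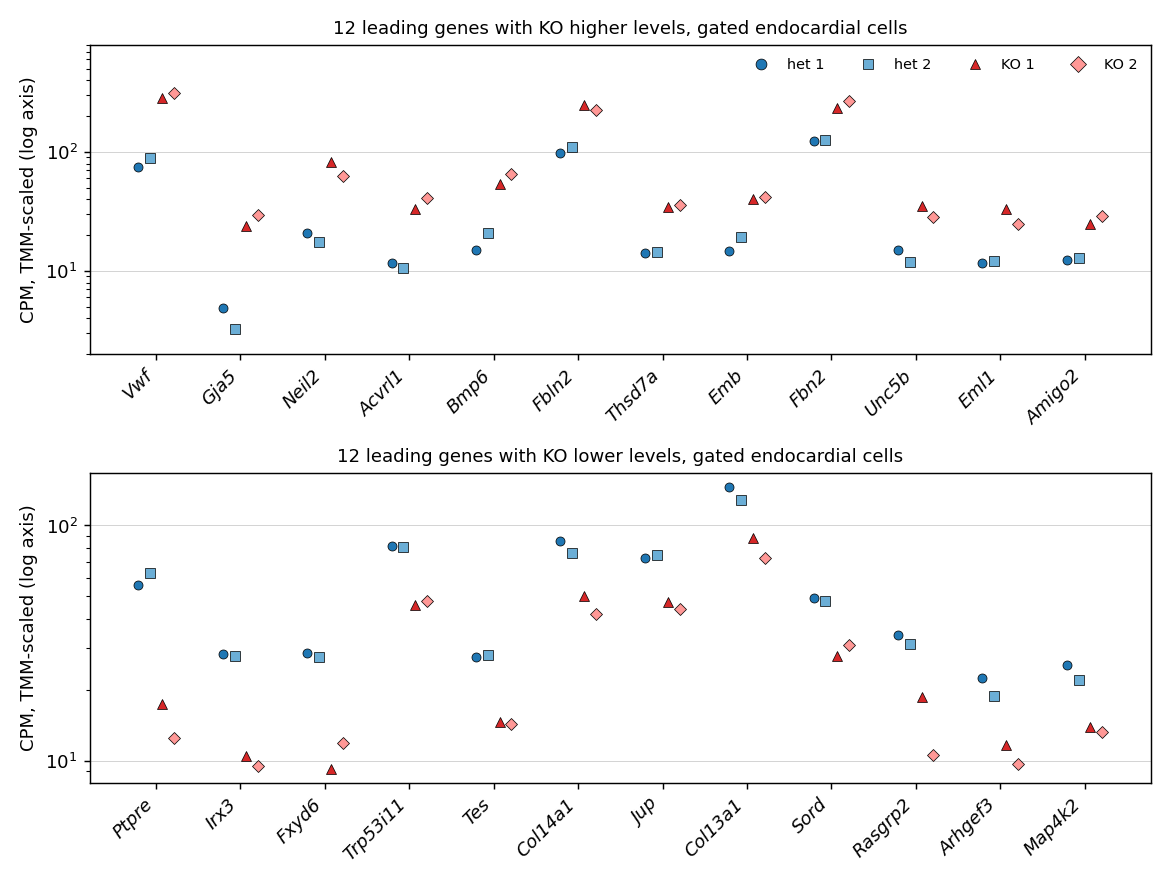
CPM scaled by TMM (log axis) in the summed endocardial cells of each library for the 12 leading genes with higher KO levels (top) and the 12 with lower KO levels (bottom), 1 point for each library. The genes were chosen for libraries that do not overlap. Vwf stands at 74.9 and 89.5 CPM in het and 287 and 312 CPM in KO, and Ptpre at 56.1 and 62.6 CPM in het and 17.4 and 12.46 CPM in KO.

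Promoters of named genes are printed because the targeted factor is known to bind a GATA core, and members of either direction can be set side by side. The windows come from RefSeq on GRCm38.p6 and run from 250 bases before to 50 bases after a start. The motif AGATAA with its variant AGATAG, and the motif TGATAA with its variant TGATAG, were searched on both strands, and capitals mark a match. Printed for higher KO levels are Gja5 (chr3:97032152-97032451, plus strand), Bmp6 (chr13:38345466-38345765, plus strand), Fbln2 (chr6:91212514-91212813, plus strand), and for lower KO levels the first of 3 starts of Ptpre (chr7:135537574-135537873, plus strand).
Gja5: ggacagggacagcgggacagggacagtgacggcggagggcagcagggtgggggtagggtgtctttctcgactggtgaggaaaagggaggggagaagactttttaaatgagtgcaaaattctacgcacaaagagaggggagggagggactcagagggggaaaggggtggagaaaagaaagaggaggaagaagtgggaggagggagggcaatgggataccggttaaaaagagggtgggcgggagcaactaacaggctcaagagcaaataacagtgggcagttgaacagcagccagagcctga
Bmp6: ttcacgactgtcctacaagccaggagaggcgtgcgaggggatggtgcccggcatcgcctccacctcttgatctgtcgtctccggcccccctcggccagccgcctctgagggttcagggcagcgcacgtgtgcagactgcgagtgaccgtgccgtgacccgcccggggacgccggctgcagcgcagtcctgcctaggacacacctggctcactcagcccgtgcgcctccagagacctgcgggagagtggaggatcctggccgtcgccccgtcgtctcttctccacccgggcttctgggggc
Fbln2: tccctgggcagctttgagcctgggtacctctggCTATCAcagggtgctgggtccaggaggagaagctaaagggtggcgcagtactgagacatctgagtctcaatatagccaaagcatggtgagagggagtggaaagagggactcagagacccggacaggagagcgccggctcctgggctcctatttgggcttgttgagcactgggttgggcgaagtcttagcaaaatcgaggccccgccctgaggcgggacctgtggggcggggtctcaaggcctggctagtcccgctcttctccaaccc
Ptpre: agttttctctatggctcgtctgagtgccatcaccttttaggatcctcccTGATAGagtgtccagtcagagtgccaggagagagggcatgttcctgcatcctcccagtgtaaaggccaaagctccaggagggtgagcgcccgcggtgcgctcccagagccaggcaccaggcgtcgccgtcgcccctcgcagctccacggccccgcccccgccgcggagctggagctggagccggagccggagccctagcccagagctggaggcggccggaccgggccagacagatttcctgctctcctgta

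The windows of Gja5 and Bmp6 held none of these letters, the window of Fbln2 held 1 match at position 34 and that of Ptpre 1 at position 50, counted from 1 at the 5′ end of the window. Of all 32851 promoters in the table, 29.8% held a match. Of the genes with higher KO levels, 8 of 12 had an entry, and 4 of their 12 promoters, in 3 genes, held a match. Of those with lower KO levels, 11 of 12 had an entry, and 3 of 17 promoters, in 2 genes, held one. A match is a description of letters and not a site.

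The named genes were then followed across the subclusters, where levels are plain CPM of that subcluster in a library. These are the same UMIs that chose the genes, now divided among cells, and subclusters differ in size, so the values are a description. Vwf stood at 134, 169.8, 561 and 483 CPM in subcluster 2, 187, 149, 462 and 624 CPM in subcluster 6 and 56.4, 56.9, 190.2 and 238 CPM in subcluster 1, so the KO libraries were higher in each. In subcluster 5 it stood at 92.7, 46.4, 145 and 18.6 CPM, where KO 2, with 13 cells, was the lowest library.

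Fbln2 stood at 135, 166, 424 and 448 CPM in subcluster 2 and 55.5, 13.8, 63.7 and 80.0 CPM in subcluster 6, so it was lower in subcluster 6 in every library. Ptpre stood at 104, 86.0, 10.6 and 13.9 CPM in subcluster 6 and 65.7, 70.0, 11.5 and 9.66 CPM in subcluster 4, with the KO libraries under the het libraries in both. In subcluster 5 it stood at 18.0, 8.18, 13.6 and 0 CPM and the groups overlapped. Irx3 stood at 39.1, 33.9, 10.2 and 7.62 CPM in subcluster 1 and at 5.15, 0, 0 and 0 CPM in subcluster 5, where it was at or near 0 in every library. Gata4 was higher in KO 1 and KO 2 in subclusters 1 and 2, at 117, 101, 201 and 197 and 135, 119.5, 288 and 231 CPM, and the groups overlapped in subcluster 5, at 337, 159.6, 384 and 251 CPM.

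**Figure D4:**
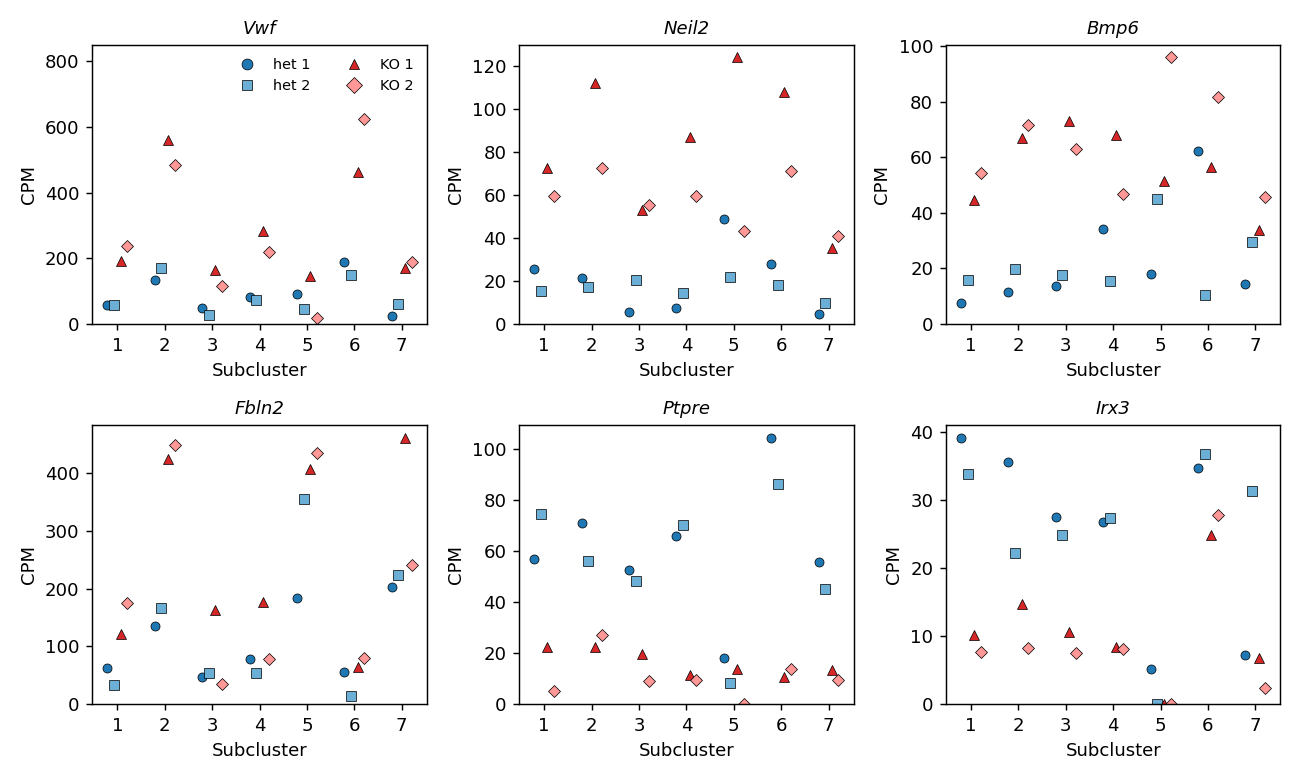
CPM of 6 named genes in each of the 7 subclusters, 1 point for each library, on linear axes that start at 0. The KO libraries lie above the het libraries for Vwf and Neil2, and below them for Ptpre, in every subcluster but 5.

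Cells split by sex gave 7 parts, 4 from het libraries and 3 from KO libraries, since KO 2 had no cells with Y-linked UMIs. The genes were chosen on the same libraries, so these values are a description. Vwf ranged over 67.6 to 121 CPM over the het parts and 294 to 306 CPM over the KO parts. Bmp6 ranged over 14.3 to 24.4 CPM over the het parts and 53.7 to 62.8 CPM over the KO parts. Ptpre ranged over 51.9 to 68.2 CPM over the het parts and 12.1 to 19.0 CPM over the KO parts. For these 3 genes the order of the groups was the same among female-type cells of all 4 libraries and among male-type cells of the 3 libraries that had them.

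The gene lists described next were chosen with earlier results of these data known, and some genes stand in more than 1 list. Their counts and medians are therefore a description. Genes of BMP and TGF-beta signalling had 23 of 30 tested members above 0, a median log2 difference of 0.16. Over all genes tested, 6662 of 13290 were above 0, with a median of 0.00061. Of the 30 members, 14 had both KO libraries above both het libraries and 2 both below. Over all genes tested these shares were 14.7% and 15%. None of the 30 passed in edgeR and DESeq2 called 3 higher, where it called 0.227% of all its genes. Beside the ligand Bmp6 and the receptor Acvrl1, the inhibitory Smads stood higher in KO. Smad6 was at 93.6 and 72.7 CPM in the het pair and 167 and 154 CPM in the KO pair (log2 difference 0.96, SE 0.174, adjusted p = 0.486) and Smad7 at 167 and 185 CPM in the het pair and 285 and 300.3 CPM in the KO pair (log2 difference 0.73, SE 0.158, adjusted p = 0.645). Both products are known to dampen BMP or TGF-beta receptors, and neither gene's groups overlapped. Eng, the co-receptor endoglin, stood at 679.7, 779, 966 and 1115 CPM (log2 difference 0.51, SE 0.193).

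Endocardial identity genes other than Npr3 had 13 of 19 tested members above 0, a median log2 difference of 0.21. Of the 19, 8 had both KO libraries above both het libraries and 3 both below, against 14.7% and 15% of all genes tested. DESeq2 called 4 higher, which are Vwf, Bmp6, Fbln2 and Hapln1, against 0.227% of all its genes. Hapln1, a link protein gene for hyaluronan in cardiac jelly, stood at 240.0 and 206 CPM in the het pair and 375 and 452 CPM in the KO pair (log2 difference 0.89, SE 0.183, adjusted p = 0.570). Genes of hyaluronan, proteoglycans and matrix, which share Fbln2 and Hapln1 with that list, had 23 of 34 tested members above 0, a median log2 difference of 0.24. Of the 34, 16 had both KO libraries above both het libraries and 3 both below, against the same 14.7% and 15%. Within the matrix list Fbn2 was higher and Col13a1 lower in KO, as given above, so its members did not all lie on 1 side. Mesenchymal markers were also highest in KO 1, and without subcluster 7 the median of the matrix list was 0.22. Vcan, the proteoglycan versican, stood at 319, 313, 258 and 220.2 CPM (log2 difference −0.40, SE 0.166). Its mean per cell was 13.6 in 10000 non-globin UMIs in subcluster 5 and 1.65 in the other cells. Subcluster 5 held 13.3, 9.34, 8.03 and 5.73% of the endocardial cells, and the part of this share in the level of Vcan was not tested.

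Genes of hypoxia and glycolysis had 26 of 28 tested members above 0, a median log2 difference of 0.47, which ranged from 0.31 to 0.58 over 19 alternative settings. Of the 28, 19 had both KO libraries above both het libraries and 2 both below, against 14.7% and 15% of all genes tested. None of the 28 passed in edgeR and DESeq2 called 0. At an unadjusted p under 0.05, 12 were higher and 1 lower, against 318 and 229 of all 13290 genes tested. Without subcluster 7 the median was 0.50. Slc2a1, the glucose transporter GLUT1, stood at 23.2 and 25.5 CPM in the het pair and 53.6 and 43.4 CPM in the KO pair (log2 difference 0.99, SE 0.184, adjusted p = 0.486). Vegfa, the endothelial growth factor, stood at 14.1, 8.61, 34.0 and 23.4 CPM (log2 difference 1.38, SE 0.296, adjusted p = 0.642), Ankrd37 at 6.10, 5.79, 12.51 and 17.0 CPM and the glycolytic enzyme gene Pfkl at 49.0, 58.2, 82.9 and 87.8 CPM. The glycolytic enzyme enolase, Eno1, stood at 145, 160.1, 218 and 281 CPM (log2 difference 0.71, SE 0.182). Summed over 29 genes the list took 2788, 3051, 3613 and 3792 CPM in endocardial cells, against a mean of 7088 CPM in coronary-like cells and 17917 CPM in cardiomyocytes. Genes of oxidative phosphorylation had 9 of 31 tested members above 0, a median log2 difference of −0.037, which turned above 0 under 4 alternative settings, among them without het 2 and without KO 1.

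Ligands from endocardium to myocardium had 17 of 23 tested members above 0, a median log2 difference of 0.25. Dkk1, a secreted Wnt inhibitor, had few UMIs in het and stood at 0.244 and 2.67 CPM in the het pair and 13.3 and 14.5 CPM in the KO pair (log2 difference 3.05, SE 0.587, adjusted p = 0.492), Wnt11, a Wnt ligand, stood at 22.9, 24.0, 38.9 and 31.0 CPM and Slit3, a guidance ligand, at 7.32, 1.34, 15.9 and 5.29 CPM with overlapping groups. Nrg1 stood at 112, 151, 113 and 113 CPM over all endocardial cells, where the groups overlapped, while in subcluster 2, as given above, both KO libraries were lower. Notch pathway genes had 14 of 18 tested members above 0, a median log2 difference of 0.15. Hey1, a target of Notch, stood at 7.32 and 14.4 CPM in the het pair and 27.5 and 33.4 CPM in the KO pair (log2 difference 1.44, SE 0.301, adjusted p = 0.576), the receptor gene Notch4 at 31.2, 30.1, 39.3 and 39.5 CPM, and the ligand genes Jag2 and Dll1 at 1.46, 3.41, 4.49 and 5.85 and 47.6, 33.2, 31.5 and 27.8 CPM. Hey1 was called by DESeq2 and is the only one of the 18 tested members that was, against 0.227% of all its genes.

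Cardiac and endothelial transcription factors had 24 of 44 tested members above 0, a median log2 difference of 0.044. Of the 44, 15 had both KO libraries above both het libraries and 11 both below, against 14.7% and 15% of all genes tested. Beside Gata4, the paralogue Gata6 stood at 242 and 256 CPM in the het pair and 333 and 382 CPM in the KO pair (log2 difference 0.52, SE 0.166, adjusted p = 0.995) and Tbx20, a T-box factor of endocardium and myocardium, at 79.0, 64.5, 143 and 98.2 CPM (log2 difference 0.75, SE 0.216). Irx3 was the lowest of the list, and Ets1, an Ets factor of endothelium, stood at 328, 344, 255 and 229 CPM (log2 difference −0.47, SE 0.162). This median turned below 0 in female-type cells alone and without het 1. Cushion and valve genes had 11 of 15 tested members above 0, a median log2 difference of 0.21, with Twist1, a helix-loop-helix factor of cushion mesenchyme, at 20.0 and 20.9 CPM in the het pair and 37.3 and 37.4 CPM in the KO pair (log2 difference 0.86, SE 0.166, adjusted p = 0.492) and Snai1, a repressor of cadherins, at 3.66, 4.45, 8.57 and 8.12 CPM. Genes of endothelial-to-mesenchymal transition had 14 of 19 tested members above 0, a median log2 difference of 0.17.

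Flow-responsive genes had 9 of 18 tested members above 0, a median log2 difference of 0.0043, which changed sign under 10 of 19 alternative settings. Connexins lay on both sides in this list, with Gja5 higher in KO as given above and Gja1, connexin 43, at 51.7, 55.2, 36.2 and 32.5 CPM (log2 difference −0.64, SE 0.162). Egr1, an immediate early factor, stood at 199, 146, 254 and 291 CPM and Ptgs1, a prostaglandin synthase gene, at 71.5, 56.5, 43.9 and 41.5 CPM. Haemostasis genes had 14 of 20 tested members above 0, a median log2 difference of 0.14 (−0.038 without KO 2). Beside Vwf, the tetraspanin gene Cd9 stood at 131, 157, 196 and 265 CPM and the selectin gene Sele at 0.975, 5.79, 10.3 and 10.2 CPM. Genes of VEGF, angiopoietin and guidance had 16 of 25 tested members above 0, a median log2 difference of 0.12, with the receptor gene Flt1 at 446, 423, 516 and 578 CPM. Genes of the G1/S step had 25 of 30 tested members above 0, a median log2 difference of 0.10, immediate early and heat shock genes 14 of 19 tested members above 0, a median log2 difference of 0.12 (−0.071 in female-type cells alone), and blood-forming genes 7 of 9 tested members above 0, a median log2 difference of 0.26 (−0.035 without KO 1).

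General and coronary endothelial genes gave medians whose sign changed under 1 alternative setting each. The 18 tested endothelial genes outside the gate had 10 above 0 and a median of 0.03, which was −0.057 without het 1. Coronary genes had 9 of 15 tested members above 0, a median log2 difference of 0.29, and −0.063 after thinning. Many of the coronary members had few UMIs, such as Cxcr4, the receptor for Cxcl12, at 0.732, 1.34, 2.18 and 2.08 CPM.

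**Figure D5:**
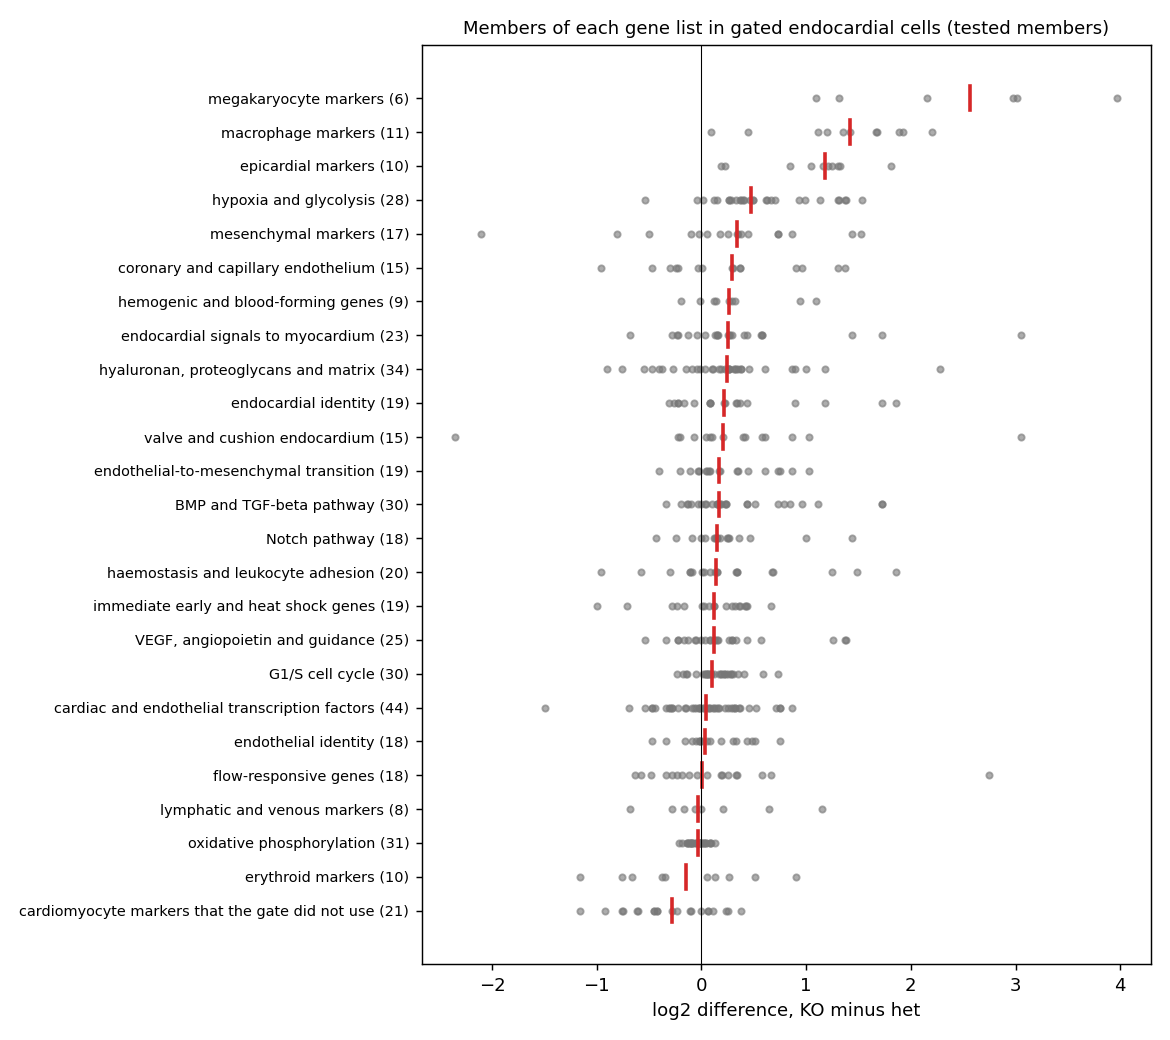
Log2 difference (KO minus het) of each tested member of 25 gene lists in the summed endocardial cells (grey points) with the median of the list (red line) and the number of tested members in brackets. Hypoxia and glycolysis has a median of 0.47, and the macrophage, megakaryocyte and epicardial markers have larger medians from few UMIs that were highest in KO 1.

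Markers of other cell types moved with single libraries. All 11 tested macrophage markers, all 6 megakaryocyte markers and all 10 epicardial markers were above 0, with medians of 1.42, 2.57 and 1.18. Without KO 1 these medians were −1.91, −0.19 and −1.64, and the macrophage median was also below 0 in female-type cells alone and without subcluster 7. Pf4, platelet factor 4, stood at 19.0, 18.8, 154 and 13.0 CPM and C1qa, a complement gene of macrophages, at 3.41, 1.93, 22.8 and 0.189 CPM, so KO 1 alone was high. Cardiomyocyte markers outside the gate had 6 of 21 tested members above 0, a median log2 difference of −0.28, and erythroid markers 5 of 10 tested members above 0, a median log2 difference of −0.15, with medians that changed sign under 2 and 6 of the alternative settings. Lymphatic markers had 3 of 8 tested members above 0, a median log2 difference of −0.034 and neural crest markers 0 of 2 tested members above 0, a median log2 difference of −0.30. Mesenchymal markers had 12 of 17 tested members above 0, a median log2 difference of 0.34. Of these, Cthrc1, a secreted matrix protein gene, stood at 9.51 and 23.0 CPM in the het pair and 41.3 and 55.9 CPM in the KO pair (log2 difference 1.53, SE 0.365, adjusted p = 0.685), and Col1a2 at 95.8, 72.3, 162 and 115 CPM.

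The last comparison asked whether the difference between the groups was itself different in endocardial and in coronary-like endothelial cells of the same libraries. Its levels were scaled by TMM over both classes together, so endocardial values of a gene differ somewhat from those above. Of 11938 genes tested with library as a block, 3 passed in edgeR (0.0251%), and 963 had an unadjusted p under 0.05. One was Gja4, connexin 37 of arterial endothelium. It stood at 147, 179, 136 and 165 CPM in endocardial cells and 30.6, 32.4, 76.5 and 152 CPM in coronary-like cells (difference of effects −1.92 on the log2 scale, SE 0.261, adjusted p = 0.0109). The endocardial levels overlapped between the groups, and the coronary-like levels were higher in both KO libraries. The other two were Ccl3, a chemokine gene, and F13a1, the coagulation factor XIII gene of macrophages and megakaryocytes, which were under the level limit for named genes and are singled out here since they passed. Ccl3 had 1, 0, 100 and 0 UMIs in endocardial cells and 36, 0, 0 and 0 in coronary-like cells, and F13a1 had 11, 4, 176 and 1 UMIs and 27, 4, 8 and 0. The endocardial UMIs of both lay mostly in KO 1, where macrophage and megakaryocyte markers were also highest, and the coronary-like UMIs mostly in het 1. Fits of this comparison without 1 library leave a single library in 1 group, so their counts are not given.

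Of the genes next in order, Eno1 stood at 139, 152, 208 and 266 CPM in endocardial cells and 626, 569, 464 and 588 CPM in coronary-like cells (difference of effects 0.88 on the log2 scale, SE 0.141, adjusted p = 0.0520). Its endocardial levels were higher in both KO libraries and its coronary-like levels were above the endocardial ones in every library. Klf4, a flow-responsive factor, stood at 83.1, 66.9, 65.4 and 57.2 CPM in endocardial cells and 15.3, 12.1, 40.7 and 141 CPM in coronary-like cells (difference of effects −2.89 on the log2 scale, SE 0.550, adjusted p = 0.112). Apoe, apolipoprotein E, stood at 1296, 1500.3, 1641 and 1976 CPM in endocardial cells and 764, 328, 238 and 246 CPM in coronary-like cells (difference of effects 1.44 on the log2 scale, SE 0.302, adjusted p = 0.158). For Ptpre the levels were 53.8, 59.3, 16.7 and 11.8 CPM in endocardial cells and 54.6, 60.7, 34.9 and 81.6 CPM in coronary-like cells (difference of effects −1.91 on the log2 scale, SE 0.390, adjusted p = 0.153), so the lower KO level of endocardial cells was not seen in both KO libraries of coronary-like cells. For Vwf they were 71.9, 84.7, 274 and 295 CPM in endocardial cells and 12.02, 21.3, 25.8 and 54.4 CPM in coronary-like cells (difference of effects 0.65 on the log2 scale, SE 0.376, adjusted p = 0.693), and for Bmp6 14.3, 19.7, 51.5 and 62.2 CPM in endocardial cells and 4.37, 5.06, 20.8 and 35.6 CPM in coronary-like cells (difference of effects −0.80 on the log2 scale, SE 0.486, adjusted p = 0.708), so both genes were higher in both KO libraries of either class. The coronary-like sums rest on 41 to 99 cells a library, and a difference that misses the threshold here does not show that the classes respond alike.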

How the data were processed

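Cells of 4 libraries (2 het, 2 KO) were measured by droplet sequencing. The deposited counts were made with Cell Ranger 6.0.1, per the file headers; the submitters' processing notes name mm10, Cell Ranger and Seurat, and the labels conflict on the kit (3′ v2 or Chromium Next GEM). The deposited counts are raw UMIs. Gene IDs matched GENCODE M21 for 54349 of 55405 rows, which may not be the authors' annotation. The members and the 26 gene lists were chosen with earlier results of these data known. The cells were gated on UMIs as described, and UMIs were summed per library. After filterByExpr (minimum count 10, total 15) and TMM scaling, edgeR 4.0.16 in R 4.3.3 compared KO with het by its quasi-likelihood test without a replicate block, with Benjamini-Hochberg adjustment over all genes at 0.05. Genes of the gate and mitochondrial genes were in the fit but are given as levels only. The comparison of classes added library as a block. DESeq2 1.42.0, limma-voom (limma 3.58.1), other filters and gates, thinning and leaving out each library were alternatives. Both subcluster subsets were added after seeing the data. Subclusters came from 2000 variable genes, 20 components and 20 neighbours by Leiden partition (igraph 0.11.9, scanpy 1.11.5) at resolution 0.5. Scrublet (expected rate 0.1) failed to set a threshold in het 1 and KO 2, where the median of the others, 0.323, was used. Female-type cells had Xist and no Y-linked UMI. Named genes followed a rule: Gata4, Neil2 and the genes of the gate; 12 genes per direction by p with at least 20 CPM in a group and libraries apart; up to 4 members of lowest p per list; 5 per direction for the comparison of classes; and the 5 leading genes of a subcluster by fold among genes seen in at least 25% of its cells, of which 1 is not reported here. The scripts were tested on simulated data.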

Additional observations from a re-analysis of the deposited data

Results flagged for a closer look

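For 3 genes the difference between KO and het was itself different in endocardial and coronary-like cells by a test of that difference (edgeR, adjusted p under 0.05). For Gja4 the endocardial effect minus the coronary-like effect was −1.92 on the log2 scale (adjusted p = 0.0109). For Ccl3 it was 14.6 (adjusted p = 0.0108) and for F13a1 5.10 (adjusted p = 0.0109), from endocardial UMIs that lay mostly in KO 1 and coronary-like UMIs that lay mostly in het 1. Gja4 had 28, 32, 92 and 145 UMIs in coronary-like cells (order het 1, het 2, KO 1, KO 2) and 628, 1275, 1042 and 923 in endocardial cells.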

How the results depend on the processing

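The number of genes called between KO and het in endocardial cells was 0 in the main test and also 0 with DESeq2-type size factors, with limma-voom, with at least 2000 genes per cell, with 1 UMI of Npr3, with cardiomyocyte UMIs under 0.5%, without doublets, in cells with EGFP and in female-type cells. It was 22 with DESeq2, 185 with no filter on low counts (145 higher, 40 lower), 10 after thinning to 3000 UMIs, 2 without cells with at least 3 UMIs of Mki67 and Top2a, 6 without subcluster 7 and 8 in subclusters 1 and 2 alone. Without 1 library it ranged from 0 to 217. Among list members the count was 0 in the main test, 13 with DESeq2, 54 with no filter, 6 after thinning, 2 without the Mki67 and Top2a cells, 4 without subcluster 7, 6 in subclusters 1 and 2, and 0 to 55 without 1 library. The endocardial minus coronary-like comparison gave 3 genes in the main test, 5 in female-type cells and 46 to 139 without 1 library. With a replicate block on the library number, which the labels leave undefined, 759 genes (445 higher, 314 lower) and 134 list members were called. Same-numbered libraries deviated together (correlation 0.677 over 6785 genes), but with only 2 pairs the numbers were not taken as a pairing. The macrophage list had no tested member after thinning and so no median there. The cause of these differences was not tested. Of 475 values for named genes under the alternatives, 0 changed direction. The named genes were chosen on these same libraries, so a kept direction follows largely from that choice. The mean share of endocardial cells over the barcodes of the quality limits was higher in KO under every setting run, by 0.171 to 1.33 points. Over those of the endothelial limits, a smaller total, the difference was 10.5 points. With 1 UMI of Npr3 or at least 2000 genes KO 2 lay below het 1. A group size of 2 libraries and 41 to 99 coronary-like cells a library limit the precision.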
